A study of Mus musculus with 28 samples.

Results

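Gata2, Gata3, Gata4, Gata5 and Gata6, genes of the GATA family of zinc finger transcription factors, were followed across the 9 groups of a mouse embryo array study. The members were the genes with these symbols in the probe annotation: 5 of 16593 gene symbols, each with 1 probe, so 5 of 25697 probes. Each of the 28 samples was hybridised to its own Illumina MouseRef-8 v2 bead array. At E8.25 (4 to 6 somites) the groups were definitive endoderm, ectoderm and mesoderm, with 3 samples each. At E11.5 the groups were endoderm of the esophagus, lung, stomach, liver and intestine, with 3 samples each, and of the pancreas, with 4. Each organ sample was the endoderm sorted by flow cytometry from organ domains of 10 to 12 pooled embryos; the sources used here do not give the strain or how the ectoderm and mesoderm were isolated. No group carried a treatment or an engineered allele in the labels.

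GATA factors bind DNA at GATA-containing motifs through zinc fingers and work with partner proteins, among them the FOG cofactors encoded by Zfpm1 and Zfpm2. By textbook convention Gata2 and Gata3 belong, with Gata1, to the branch known for blood, endothelium, lymphoid cells and several ectodermal tissues, while Gata4, Gata5 and Gata6 form the branch known for heart and for endoderm of the gut, liver and pancreas. Gata4 and Gata6 act early in endoderm and overlap in function in the developing heart and pancreas. In the mouse assembly GRCm38.p6 (RefSeq), Gata2 lies at chr6:88193891-88207032, Gata3 at chr2:9857078-9887953, Gata4 at chr14:63198914-63271712, Gata5 at chr2:180325088-180335503 and Gata6 at chr18:11052510-11085636. The sources used here do not say where in its transcript each probe lies.

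Levels are log2 of the normalized probe intensity. A probe was taken as above background on an array where it exceeded the 99th percentile of 1361 probes for sensory receptors, which stand for unexpressed genes. By that measure the Gata6 probe was above background on 28 of 28 arrays, Gata3 on 19, Gata4 on 16, Gata5 on 15 and Gata2 on 12. All 5 members were among the 9651 genes tested, because each was above background on every array of at least 1 group. A gene was called in a comparison when limma's adjusted p was under 0.05 and its levels differed at least 2-fold. Levels of different probes are not compared with each other. In bulk samples, fewer cells of a type and less RNA per cell cannot be told apart.

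Arrays of 1 group correlated at 0.946 to 0.995 over the 9651 genes tested, and arrays of different groups at 0.796 to 0.980. Pancreas 3 had 7079 probes above background and intestine 3 had 9664, against 10842 to 12862 on the other arrays. Deposited values below 0 numbered 11861 on pancreas 3, 7931 on intestine 3 and 1631 on liver 3, against 0 to 39 on the other arrays. All mesoderm and liver arrays, with lung 1 and stomach 1, formed a class of 8 arrays without any deposited intensity over 20000; the sources used here do not say what sets this class apart. The label definitive endoderm went with summed endoderm epithelium markers (13 genes) of 29279 to 33245 intensity units, against 3449 to 7116 in ectoderm and mesoderm, and the mesoderm label with summed cardiac muscle markers (10 genes) of 7258 to 11516, against 107 to 705 in the other groups. The same endoderm arrays carried a yolk sac and visceral endoderm sum (10 genes) of 9552 to 11120, above the 1256 to 2084 of ectoderm. Spink1, with a mean log2 level of 12.70 in E8.25 endoderm, made up a large part of this sum. It also counts in the endoderm epithelium sum, so these sums are not separate measures. Their surface ectoderm sum (10 genes) was 2363 to 3320, also above the 990 to 1368 of ectoderm and the 291 to 394 of mesoderm. Marker sums are levels above the median receptor probe on the same array, and their part in the results was not tested.

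**Figure D1:**
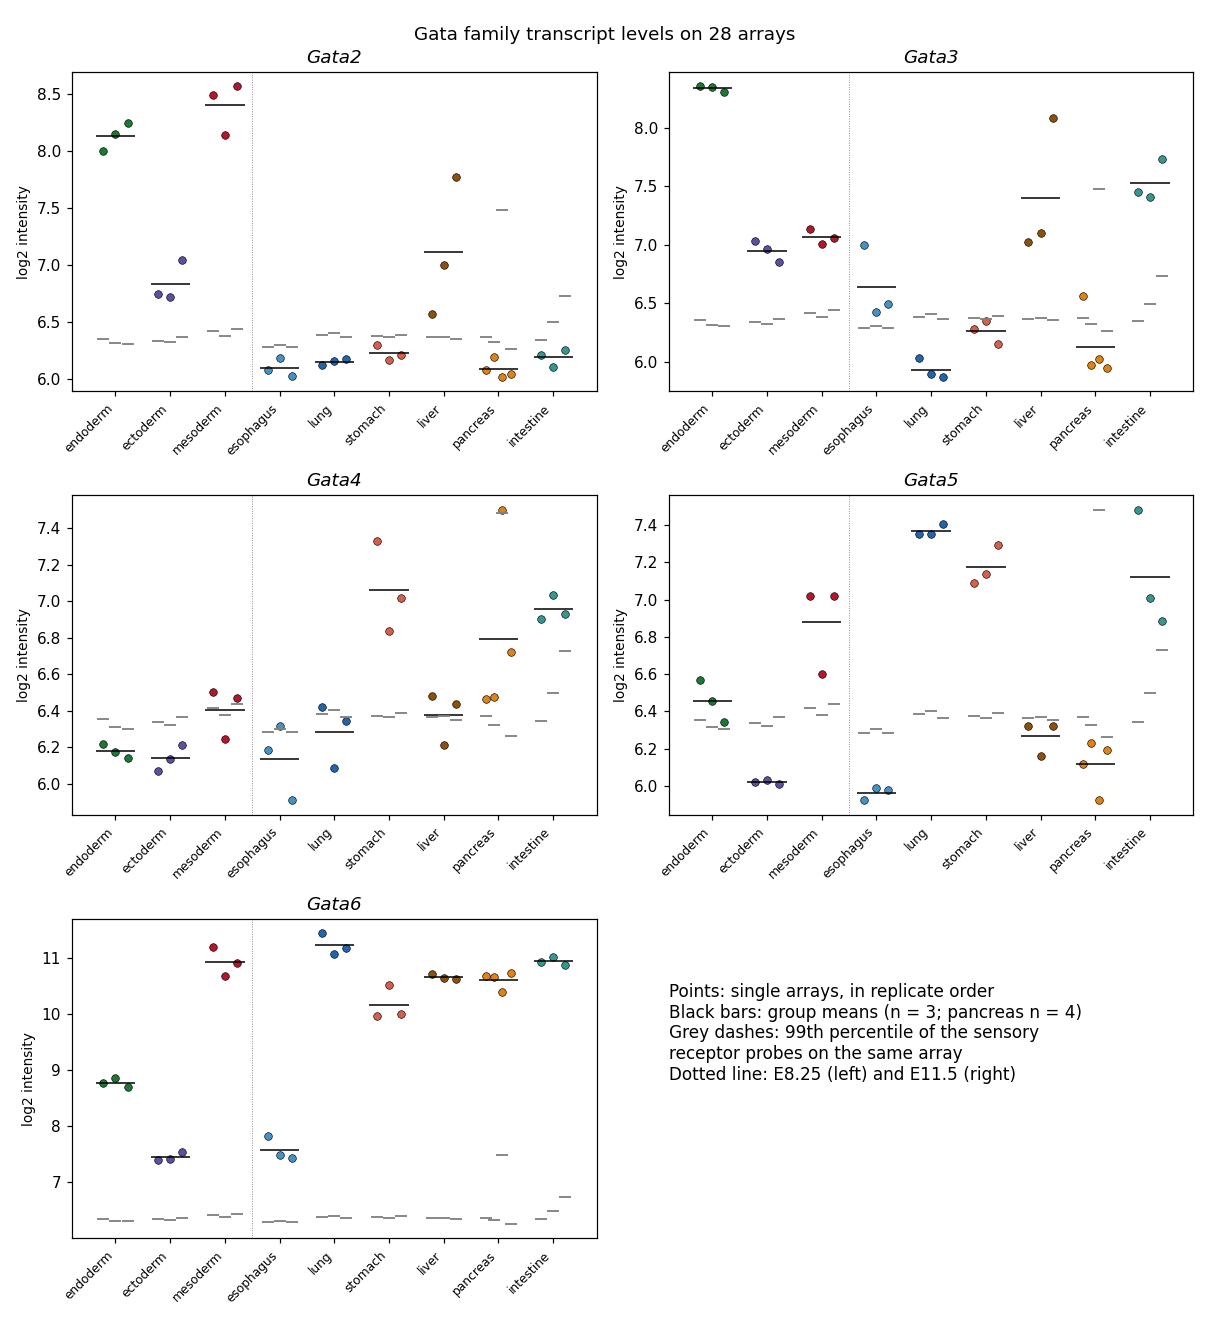
Log2 normalized intensity of the 5 Gata probes on each of the 28 arrays (points), with group means (black bars) and the 99th percentile of the receptor probes on the same array (grey dashes); the y axis differs between panels. Gata6 lies above the dashes throughout and lowest in ectoderm and esophagus, Gata2 falls to the dashes or below in every organ but liver, and Gata4 clears them on all arrays in stomach, pancreas and intestine only.

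Among the E8.25 layers, Gata6 was highest in mesoderm, intermediate in endoderm and lowest in ectoderm. Gata2 was high in both mesoderm and endoderm. Gata3 was highest in endoderm, Gata5 stood above background in mesoderm and endoderm, and Gata4 was near background in all 3 layers.

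Gata6, the member best known for extraembryonic and definitive endoderm, had levels of 11.20, 10.68 and 10.90 in mesoderm, 8.78, 8.87 and 8.69 in endoderm and 7.39, 7.41 and 7.54 in ectoderm. The 3 layers did not overlap. Ectoderm was lower than mesoderm by a log2 difference of -3.48 ± 0.15 (SE), an 11.2-fold difference (limma, adjusted p = 4.41e-14). Endoderm lay between them, -2.15 ± 0.15 below mesoderm (adjusted p = 6.18e-11) and 1.33 ± 0.15 above ectoderm (adjusted p = 6.97e-07). With the intensity class as a term of the fit, the endoderm difference from mesoderm was -2.15 ± 0.22. All mesoderm arrays and no other E8.25 arrays were of the lower class. The term was thus estimated from the lung and stomach arrays only and could not separate class from layer.

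Gata2, a factor of blood progenitors and endothelium, read 8.49, 8.14 and 8.57 in mesoderm, 8.001, 8.15 and 8.248 in endoderm and 6.75, 6.72 and 7.04 in ectoderm. Mesoderm and endoderm overlapped, and both stood above every ectoderm array. Ectoderm was -1.56 ± 0.18 below mesoderm (limma, adjusted p = 6.45e-07), and endoderm was 1.30 ± 0.18 above ectoderm (adjusted p = 1.82e-05). The difference between endoderm and mesoderm, -0.27 ± 0.18, did not pass the test (adjusted p = 0.268).

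Gata3, a factor of trophectoderm, lymphoid cells and surface ectoderm derivatives, read 8.36, 8.36 and 8.31 in endoderm, 7.03, 6.96 and 6.86 in ectoderm and 7.13, 7.01 and 7.06 in mesoderm. The endoderm arrays stood apart within a narrow range, while ectoderm and mesoderm overlapped. Endoderm was higher than ectoderm by 1.39 ± 0.20 (limma, adjusted p = 3.22e-05) and than mesoderm by 1.27 ± 0.20 (adjusted p = 3.75e-05). Ectoderm and mesoderm differed by -0.12 ± 0.20 (adjusted p = 0.732). The endoderm arrays also had surface ectoderm sums of 2363 to 3320, against 990 to 1368 in ectoderm and 291 to 394 in mesoderm. The part of this signal in the Gata3 level was not tested.

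Gata5, which acts in heart and gut endoderm, read 7.02, 6.60 and 7.02 in mesoderm, 6.57, 6.45 and 6.34 in endoderm and 6.02, 6.03 and 6.01 in ectoderm, where it was not above background on any array. The layers did not overlap, but no fitted difference reached the fold threshold. Mesoderm was at least 1.45-fold above ectoderm (limma, adjusted p = 2.16e-05), a bound because the dimmer group had only background signal. With an offset of 16 in place of 50 intensity units in the background correction, ectoderm minus mesoderm was -1.43 ± 0.19 and was called. Endoderm was -0.42 ± 0.13 below mesoderm (adjusted p = 0.0132). Gata4, a factor of heart and foregut endoderm, read 6.22, 6.17 and 6.14 in endoderm, 6.07, 6.13 and 6.21 in ectoderm and 6.50, 6.24 and 6.47 in mesoderm, and only 2 of these 9 arrays, mesoderm 1 and mesoderm 3, were above background.

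Endoderm and ectoderm differed in 3 of the 5 members (Gata2, Gata3 and Gata6, all higher in endoderm), where 2.83% of all genes tested were called. Endoderm and mesoderm differed in 2 (Gata3 higher and Gata6 lower in endoderm), against 8.63% of all genes. Ectoderm and mesoderm differed in 2 (Gata2 and Gata6, both lower in ectoderm), against 5.54%. All 7 calls remained under each array left out in turn and under every alternative run on all 3 layers. Within mesoderm, Gata2, Gata3, Gata4, Gata5 and Gata6 were each lowest on mesoderm 2, which had an erythroid and blood progenitor sum (13 genes) of 29920 against 3860 and 17302 on mesoderm 1 and 3, a neural ectoderm sum (13 genes) of 1210 against 254 and 229, and an endothelium sum (14 genes) of 8120 against 10214 and 12941. Without mesoderm 2 the log2 difference of Gata6 between endoderm and mesoderm was -2.27 ± 0.16.

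The promoters of Gata2 and Gata3 are shown because both genes stood higher in E8.25 endoderm than in ectoderm and than in several organs at E11.5. Each window runs from 250 bases before to 50 bases after an annotated start (RefSeq, GRCm38.p6), read on the strand of the gene, and 3 of the 5 members (Gata2, Gata3 and Gata5) had an entry. The GATA motifs searched were AGATAA, the variant AGATAG, the variant TGATAA and then the variant TGATAG, on both strands, and matches are in capitals. Gata3 is at chr2:9878551-9878850, minus strand, and Gata2 has starts at chr6:88193641-88193940 and chr6:88198414-88198713, plus strand.
Gata3: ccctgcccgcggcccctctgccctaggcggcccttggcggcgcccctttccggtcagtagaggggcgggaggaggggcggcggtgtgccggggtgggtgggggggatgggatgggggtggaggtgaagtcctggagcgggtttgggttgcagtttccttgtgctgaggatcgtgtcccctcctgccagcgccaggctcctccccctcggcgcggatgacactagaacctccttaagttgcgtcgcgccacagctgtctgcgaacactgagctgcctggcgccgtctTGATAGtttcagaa
Gata2, upstream start: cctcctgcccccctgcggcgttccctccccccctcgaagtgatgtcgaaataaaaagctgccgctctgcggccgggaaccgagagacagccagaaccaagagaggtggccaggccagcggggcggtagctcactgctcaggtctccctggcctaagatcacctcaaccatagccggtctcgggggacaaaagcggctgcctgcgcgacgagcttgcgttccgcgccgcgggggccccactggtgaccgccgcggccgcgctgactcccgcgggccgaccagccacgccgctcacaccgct
Gata2, downstream start: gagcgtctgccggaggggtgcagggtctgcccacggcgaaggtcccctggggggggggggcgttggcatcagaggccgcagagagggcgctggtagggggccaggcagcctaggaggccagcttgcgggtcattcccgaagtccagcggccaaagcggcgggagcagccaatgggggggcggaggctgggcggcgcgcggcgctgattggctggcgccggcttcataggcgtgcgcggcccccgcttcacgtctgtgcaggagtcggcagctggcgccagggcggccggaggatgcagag

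The Gata3 window held 1 match, TGATAG, beginning 37 bases into the transcript counted from the start as base 1. Neither Gata2 window held a match, nor did the Gata5 window. Of 32851 promoter windows of the same length, 29.8% held at least 1 of these motifs. A match is a description of the letters in the window and no evidence of binding.

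At E11.5, Gata6 was higher than in E8.25 definitive endoderm in lung, intestine, liver, pancreas and stomach, and lower in esophagus. Gata2 was lower in all 6 organs. Gata3 was lower in lung, pancreas, stomach and esophagus, while its differences in liver and intestine stayed under 2-fold. Gata4 in stomach, intestine and pancreas, and Gata5 in lung, stomach and intestine, were higher by fitted differences under 2-fold. For Gata4, with background signal in E8.25 endoderm, the bounds given below are smaller than the fitted differences.

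Gata6 read 11.44, 11.08 and 11.18 in lung, 10.93, 11.01 and 10.88 in intestine, and 10.72, 10.65 and 10.63 in liver. Pancreas read 10.69, 10.66, 10.39 and 10.73, and stomach 9.96, 10.53 and 10.00. Every one of these arrays lay above every E8.25 endoderm array. The 3 esophagus arrays, at 7.83, 7.48 and 7.44, lay below every E8.25 endoderm array, and esophagus 2 and esophagus 3 lay within the range of ectoderm. Against E8.25 endoderm the log2 difference was 2.45 ± 0.15 in lung (limma, adjusted p = 6.31e-12) and 2.16 ± 0.15 in intestine (adjusted p = 3.85e-11). Liver followed at 1.89 ± 0.15, pancreas at 1.84 ± 0.14 and stomach at 1.39 ± 0.15 (adjusted p = 1.64e-10, 1.35e-10 and 8.61e-08). The esophagus differed by -1.20 ± 0.15 (adjusted p = 6.28e-07). The esophagus arrays also had the highest mesenchyme sums among the organs (18 genes), 8890 to 10762 against 879 to 2885, and a surface ectoderm sum of 5433 to 7161 against 41 to 457; the part of these signals in the Gata6 level was not tested.

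Gata2 was above background in a single organ, liver, at 6.57, 7.002 and 7.77. On the 16 arrays of the other 5 organs it read 6.02 to 6.30 and was not above background on any. All 19 organ arrays lay below all 3 E8.25 endoderm arrays. Because of the background signal the differences from E8.25 endoderm are bounds. Gata2 was at least 3.59-fold lower in esophagus, 3.38-fold in stomach, 3.36-fold in lung, 3.05-fold in intestine and 2.88-fold in pancreas, with limma adjusted p between 7.87e-10 and 1.55e-08. In liver it was lower by -1.02 ± 0.18 (adjusted p = 4.74e-05), just past the fold threshold, and this call was lost without liver 1 (-0.75), without liver 2 (-0.96) or without endoderm 3 (-0.96).

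Gata3 read 7.45, 7.41 and 7.73 in intestine, 7.02, 7.10 and 8.09 in liver and 7.001, 6.43 and 6.49 in esophagus. In lung (6.03, 5.89 and 5.87) and stomach (6.28, 6.35 and 6.15) it was not above background on any array, and in pancreas (6.56, 5.97, 6.03 and 5.95) on pancreas 1 only. No organ array reached the E8.25 endoderm level. Gata3 was at least 3.90-fold lower in stomach and at least 3.88-fold lower in lung than in E8.25 endoderm (limma, adjusted p = 2.45e-08 and 2.13e-09). The fitted difference was -2.21 ± 0.19 in pancreas, with 1 of 4 arrays above background, and -1.70 ± 0.20 in esophagus (adjusted p = 1.55e-09 and 4.2e-07). Intestine, at -0.81 ± 0.20 (adjusted p = 0.00323), and liver, at -0.94 ± 0.20 (adjusted p = 0.000438), differed by less than 2-fold. Without liver 3 the liver difference was -1.28 ± 0.16 and was called.

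Gata4 read 7.33, 6.84 and 7.02 in stomach, 6.90, 7.04 and 6.93 in intestine and 6.46, 6.48, 7.499 and 6.72 in pancreas, the 3 organs in which every array was above background. The highest pancreas value was on pancreas 3, the array with the fewest probes above background, where the threshold itself was 7.48. In liver (6.48, 6.21 and 6.44), lung (6.42, 6.09 and 6.34) and esophagus (6.19, 6.32 and 5.91) only 2, 1 and 1 of 3 arrays were above background. All stomach, intestine and pancreas arrays lay above all E8.25 endoderm arrays, which had background signal. Gata4 was at least 1.67-fold higher in stomach (limma, adjusted p = 0.000711), at least 1.55-fold in intestine (adjusted p = 0.00243) and at least 1.38-fold in pancreas (adjusted p = 0.00738) than in E8.25 endoderm. The pancreas bound depended on pancreas 3. Without that array the fitted log2 difference fell from 0.61 to 0.38, which is smaller than the bound. No fitted Gata4 difference reached 2-fold in any of the 24 comparisons. An offset of 50 intensity units in the background correction narrows the differences of dim probes. With an offset of 16 the stomach and intestine differences were 1.37 ± 0.28 and 1.23 ± 0.28 and both were called.

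Gata5 read 7.35, 7.35 and 7.41 in lung, 7.09, 7.14 and 7.29 in stomach and 7.48, 7.01 and 6.88 in intestine, all above background. In esophagus (5.92, 5.99 and 5.98), liver (6.32, 6.16 and 6.32) and pancreas (6.11, 6.23, 5.92 and 6.19) no array was above background. Lung, stomach and intestine lay above every E8.25 endoderm array, and the liver difference, with background signal in liver, did not pass the test (limma, adjusted p = 0.237). Against E8.25 endoderm Gata5 was higher by 0.92 ± 0.13 in lung (limma, adjusted p = 6.77e-06), by 0.72 ± 0.13 in stomach (adjusted p = 0.000114) and by 0.67 ± 0.13 in intestine (adjusted p = 0.000261). It was at least 1.12-fold lower in esophagus (adjusted p = 0.00375). With an offset of 16 the lung and stomach differences, 1.29 ± 0.19 and 1.04 ± 0.19, were called.

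**Figure D2:**
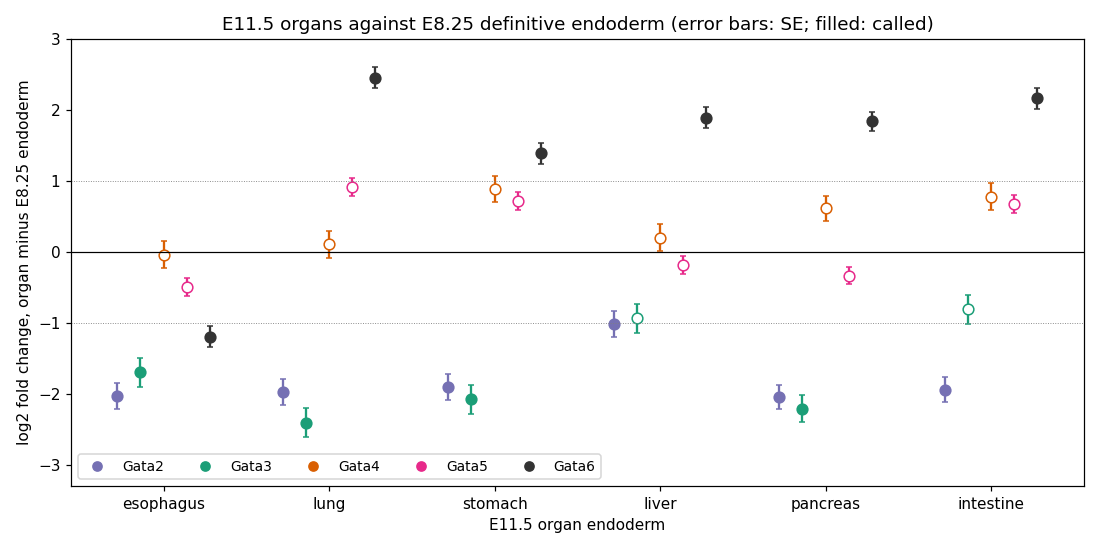
Log2 fold change of each Gata probe in 6 E11.5 organs against E8.25 definitive endoderm (points, error bars SE of the limma fit; filled points were called, dotted lines mark 2-fold). Gata6 lies between 1.39 and 2.45 in 5 organs and at -1.20 in esophagus, whereas every Gata2 and Gata3 point lies below 0. For groups with only background signal the fitted values are shown, and the bounds in the text are smaller.

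Esophagus differed from E8.25 endoderm in 3 of the 5 members (Gata2, Gata3 and Gata6 lower), where 11.1% of all genes tested were called. Lung differed in 3 (Gata6 higher, Gata2 and Gata3 lower) against 8.22% of all genes, stomach in the same 3 against 9.22% and pancreas in the same 3 against 10.5%. Liver differed in 2 (Gata6 higher, Gata2 lower) against 18.6%, and intestine in the same 2 against 8.52%. The 6 comparisons share the 3 E8.25 endoderm arrays. The 6 comparisons held 16 calls in all, and 15 to 17 when single arrays were left out.

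Between the E11.5 organs, Gata6 separated esophagus from each of the other 5. Gata5 separated lung, stomach and intestine from pancreas and esophagus, and lung from liver. Stomach and intestine also lay above liver for Gata5, by fitted differences under 2-fold. Gata3 was higher in intestine and liver than in lung, stomach and pancreas, and Gata2 was higher in liver than in esophagus and pancreas.

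For Gata6 the esophagus was lower than lung by -3.65 ± 0.15, a 12.6-fold difference (limma, adjusted p = 1.54e-14). It was lower than intestine by -3.36 ± 0.15, than liver by -3.08 ± 0.15, than pancreas by -3.03 ± 0.14 and than stomach by -2.58 ± 0.15 (adjusted p = 1.31e-14, 1.44e-14, 1.16e-14 and 3.2e-12). No esophagus array came within 2 log2 units of an array of another organ. Lung exceeded stomach by 1.07 ± 0.15 (adjusted p = 9.17e-06). That call was lost without lung 1 (0.97), stomach 1 (0.97) or stomach 3 (0.99), and was 0.87 ± 0.16 (adjusted p = 0.00166) within the 20 arrays of the higher intensity class and 1.48 between lung 1 and stomach 1, the only lung and stomach arrays of the lower class.

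The order of the Gata6 group means ran from lung (11.23) through intestine (10.94), mesoderm (10.93), liver (10.67), pancreas (10.62) and stomach (10.16) to E8.25 endoderm (8.78), esophagus (7.58) and ectoderm (7.45). Neighbours from intestine to stomach overlapped, as did esophagus and ectoderm. Lung and intestine, whose arrays did not overlap, differed by 0.29 ± 0.15 (limma, adjusted p = 0.205), which did not pass the test. Intestine and stomach differed by -0.78 ± 0.15, stomach being lower (adjusted p = 0.000503), under 2-fold.

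Gata5 was at least 2.11-fold higher in lung, 1.85-fold in stomach and 1.78-fold in intestine than in esophagus (limma, adjusted p = 9.99e-09, 1.29e-07 and 1.49e-07). It was at least 2.01-fold higher in lung than in liver and at least 1.69-fold higher in lung than in pancreas (adjusted p = 1.7e-07 and 1.56e-08). Stomach and intestine exceeded pancreas by at least 1.48-fold and 1.43-fold (adjusted p = 2.83e-07 and 5.19e-07). Both calls against pancreas were lost without pancreas 3, where stomach minus pancreas was 0.996 and pancreas minus intestine -0.95. Without intestine 1 the difference of esophagus from intestine was -0.98 and of pancreas from intestine -0.83, both under the threshold. Liver was exceeded by stomach at least 1.76-fold and by intestine at least 1.70-fold (limma, adjusted p = 3.19e-06 and 7.14e-06), without overlap. Neither fitted difference reached 2-fold, but both were called with an offset of 16 (stomach minus liver 1.36, liver minus intestine -1.29).

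Gata3 was at least 2.21-fold higher in intestine than in lung, at least 2.23-fold higher than in stomach, and the fitted pancreas minus intestine difference, with 1 of 4 pancreas arrays above background, was -1.40 ± 0.19 on the log2 scale (limma, adjusted p = 1.75e-06, 6.71e-05 and 3.41e-06). Liver was at least 2.02-fold above lung, at least 2.04-fold above stomach and by the fit 1.28 ± 0.19 above pancreas (adjusted p = 1.99e-06, 5.96e-05 and 6.11e-06). Liver and intestine overlapped and differed by -0.13 ± 0.20 (adjusted p = 0.647). The order of Gata3 means ran from E8.25 endoderm (8.34) through intestine (7.53), liver (7.40), mesoderm (7.07), ectoderm (6.95) and esophagus (6.64) to stomach (6.26), pancreas (6.13) and lung (5.93), and only the steps from endoderm to intestine and from esophagus to stomach were free of overlap.

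Gata2 in liver was at least 1.77-fold above esophagus and at least 1.42-fold above pancreas (limma, adjusted p = 5.19e-05 and 2.38e-05). Both calls were lost without liver 3, where the log2 differences were -0.69 for esophagus minus liver and 0.70 for liver minus pancreas. Both were also lost with array weights in the fit (-0.88 and 0.84). Esophagus minus liver was further lost without esophagus 3 (-0.98) and with the intensity class as a term (-0.99). Gata3 in liver likewise fell to 0.93 above pancreas, and stomach minus liver to -0.80, without liver 3.

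On liver 1, liver 2 and liver 3 Gata2 read 6.57, 7.002 and 7.77, and Gata3 read 7.02, 7.10 and 8.09. On the same arrays the erythroid and blood progenitor sum (13 genes) was 2352, 9113 and 12228. Tal1, a blood progenitor factor counted in that sum and so no separate measure, read 6.50, 6.85 and 7.61. The 2 Gata genes and the sum, with Tal1 as part of it, were thus all highest on liver 3 and lowest on liver 1. The endothelium sum (14 genes) ran otherwise, at 2486, 2703 and 1780. Gata6 varied little over the same arrays (10.72, 10.65 and 10.63). Liver 3 also had 1631 deposited values below 0, against 0 on liver 1 and liver 2. Its median deposited intensity was 22.9, against 32.5 on liver 1 and 30.5 on liver 2. Gata1, the erythroid family member, has 2 probes, and neither was above background on any of the 28 arrays. In intestine the erythroid sum was 6805, 8420 and 15647, with Gata3 highest on intestine 3 (7.73), and Tal1 and Gata2 were at background there. The part of blood cell RNA, and of the deposited intensities of liver 3, in these levels was not tested.

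**Figure D3:**
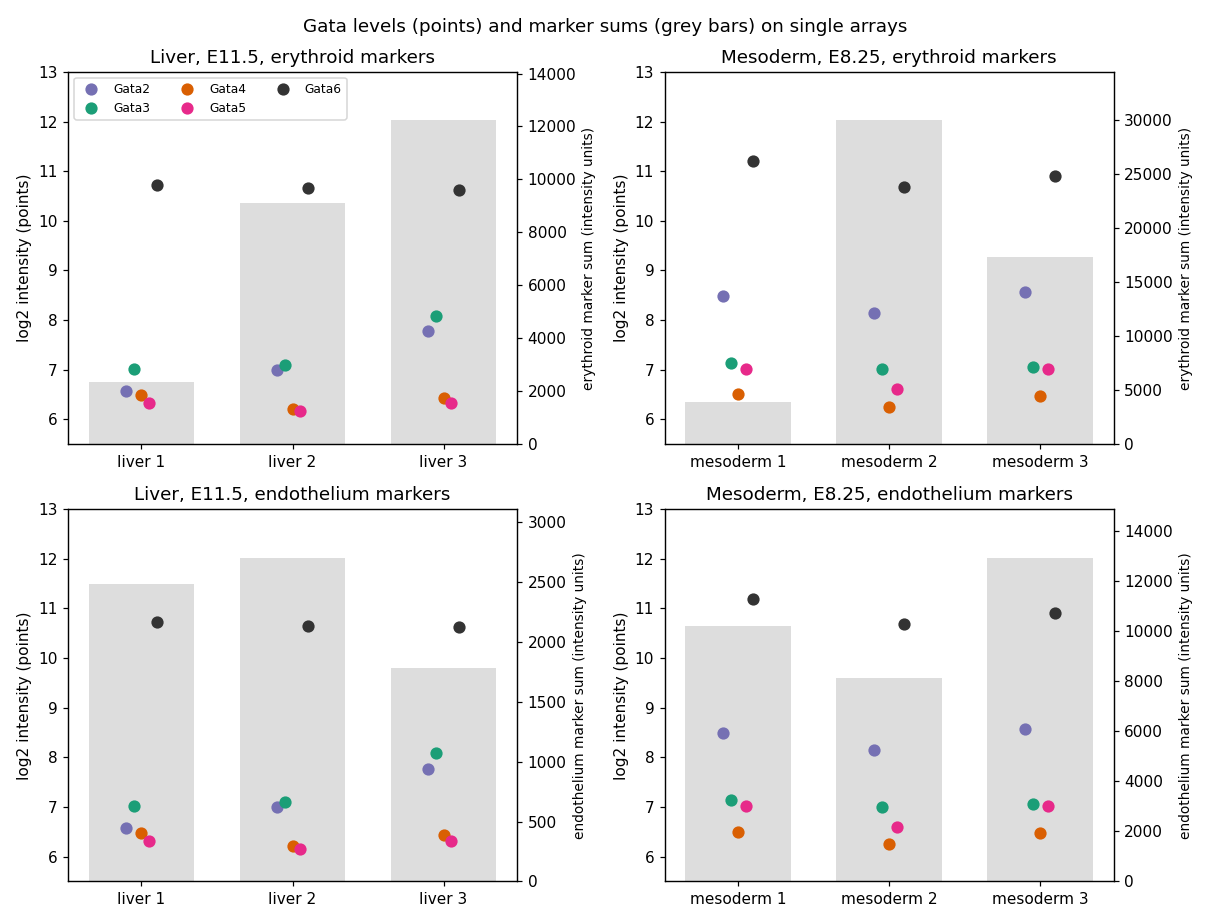
Log2 levels of the 5 Gata probes (points, left axes) on the 3 liver arrays and the 3 mesoderm arrays, with the summed erythroid markers (upper panels) and endothelium markers (lower panels) as grey bars on right axes that differ between panels (intensity units). Liver 3, with the highest Gata2 and Gata3, has the highest erythroid and the lowest endothelium bar of the liver arrays, and mesoderm 2, with the lowest level of all 5 Gata genes, has the highest erythroid and the lowest endothelium bar of the mesoderm arrays.

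For Gata4, with 1 of 3 esophagus arrays above background, the fitted esophagus minus stomach difference was -0.92 ± 0.19 (limma, adjusted p = 0.000804), without overlap. It was called without esophagus 2 (-1.01), without stomach 2 (-1.03) and with scaling to the 75th percentile (-1.003). Lung minus stomach, with 1 of 3 lung arrays above background, was -0.78 ± 0.19 (adjusted p = 0.00665) and stomach minus liver 0.68 ± 0.19 (adjusted p = 0.00491). Stomach, intestine and pancreas overlapped, and their differences (0.27, 0.11 and -0.16) had limma adjusted p between 0.303 and 0.818. The order of Gata4 means was stomach (7.06), intestine (6.96), pancreas (6.79), mesoderm (6.41), liver (6.38), lung (6.28), E8.25 endoderm (6.18), ectoderm (6.14) and esophagus (6.14), and every pair of neighbours overlapped.

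**Figure D4:**
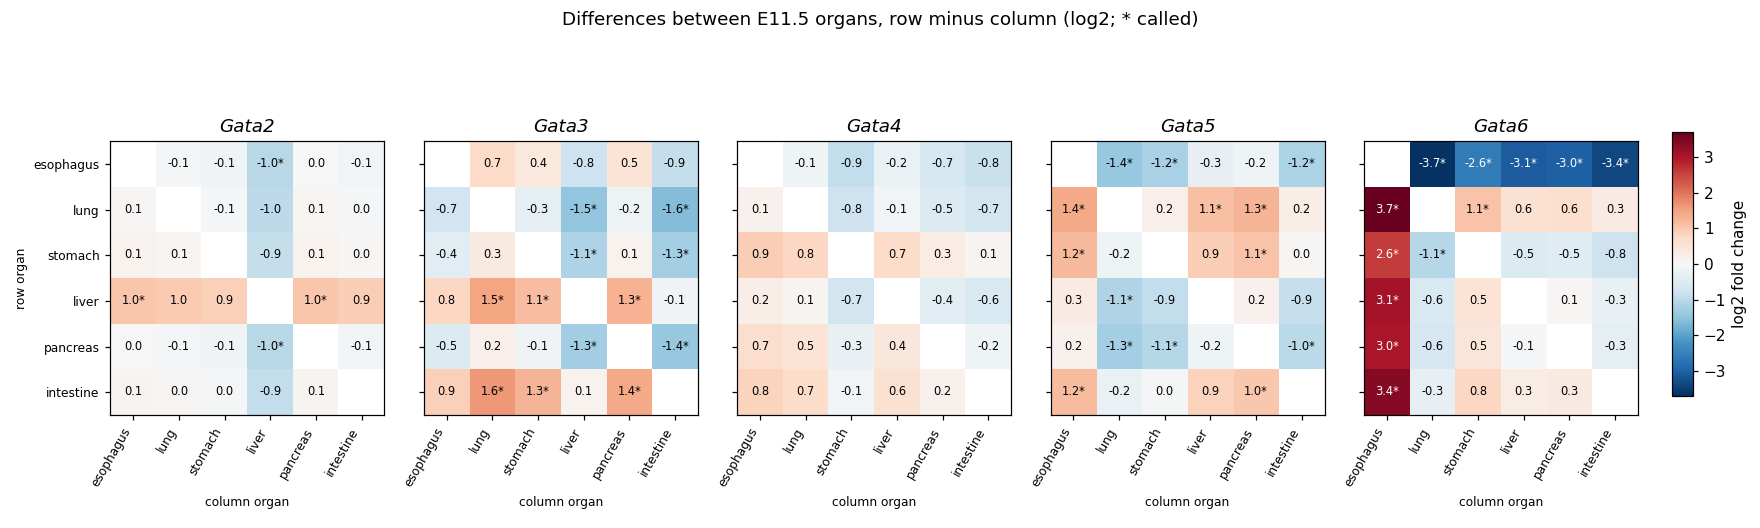
Log2 differences between E11.5 organs for each Gata probe, row organ minus column organ, with asterisks on called differences. The Gata6 esophagus row runs from -2.6 to -3.7 while no Gata4 difference is called. Fitted values are shown also for groups with only background signal, where the bounds in the text are smaller.

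Counted by comparison, esophagus and lung differed in 2 of the 5 members (Gata5 and Gata6), where 6.08% of all genes tested were called, esophagus and stomach in the same 2 against 5.73% and esophagus and intestine in the same 2 against 8.11%. Esophagus and liver differed in 2 (Gata2 and Gata6) against 17.6%, and esophagus and pancreas in 1 (Gata6) against 10.1%. Lung and stomach differed in 1 (Gata6) against 3.52%, lung and liver in 2 (Gata3 and Gata5) against 15.1%, lung and pancreas in 1 (Gata5) against 7.01% and lung and intestine in 1 (Gata3) against 5.76%. Stomach differed in 1 member from liver (Gata3, against 15%), from pancreas (Gata5, against 6.22%) and from intestine (Gata3, against 4.07%). Liver and pancreas differed in 2 (Gata2 and Gata3) against 13.8%, pancreas and intestine in 2 (Gata3 and Gata5) against 6.59%, and liver and intestine in 0 against 15.3%. Between liver and intestine, Gata2, Gata4 and Gata5 passed limma's adjusted p (0.000191, 0.0153 and 7.14e-06) but not the fold threshold, where 43.7% of all genes passed the adjusted p. At an unadjusted p under 0.05 the count was the same 3 of 5 members, against 50% of all genes. Each of these comparisons shares arrays with others.

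Over the 9 group means the members followed separate patterns. Gata5 and Gata6 correlated at r = 0.69, Gata2 and Gata3 at 0.66, Gata4 and Gata6 at 0.57 and Gata4 and Gata5 at 0.48, while Gata2 and Gata6 stood at -0.02 and Gata2 and Gata4 at -0.40. These are descriptions over 9 groups that share arrays' normalization and, for dim probes, a background level.

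Zfpm1, which encodes the GATA partner FOG1, was above background on every array. It read 11.52, 11.60 and 11.62 in stomach, 11.85, 11.55, 11.47 and 11.14 in pancreas, 11.30, 11.37 and 10.61 in intestine, 11.39, 11.03 and 10.66 in liver and 11.17, 11.15 and 11.30 in mesoderm. It was lower in E8.25 endoderm (10.28, 10.11 and 10.05), lung (9.14, 9.59 and 9.33), ectoderm (8.78, 9.06 and 9.38) and esophagus (8.73, 8.53 and 8.68). It separated esophagus from stomach, at -2.93 ± 0.20 (limma, adjusted p = 6.62e-11), and from pancreas, at -2.86 ± 0.19 (adjusted p = 1.03e-11). Zfpm1 was lower in lung than in stomach, at -2.23 ± 0.20 (adjusted p = 1.14e-08), and its lung level did not reach that of E8.25 endoderm (-0.79 ± 0.20, adjusted p = 0.00346).

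Zfpm2, which encodes FOG2, the cofactor known from heart and gonad, read 7.57, 7.06 and 7.39 in mesoderm, 7.43, 6.98 and 6.93 in liver and 7.01, 6.69 and 6.69 in esophagus. It was above background on every array of these 3 groups only. Mesoderm was at least 2.02-fold above E8.25 endoderm and at least 1.99-fold above ectoderm (limma, adjusted p = 3.7e-08 and 6.91e-07), and liver was at least 1.73-fold above E8.25 endoderm (adjusted p = 1.73e-07). Summed mesenchyme markers were 11505 to 14070 in mesoderm, 8890 to 10762 in esophagus and 2481 to 2885 in liver, against 879 to 2812 in the other groups, and their part in the Zfpm2 levels was not tested.

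**Figure D5:**
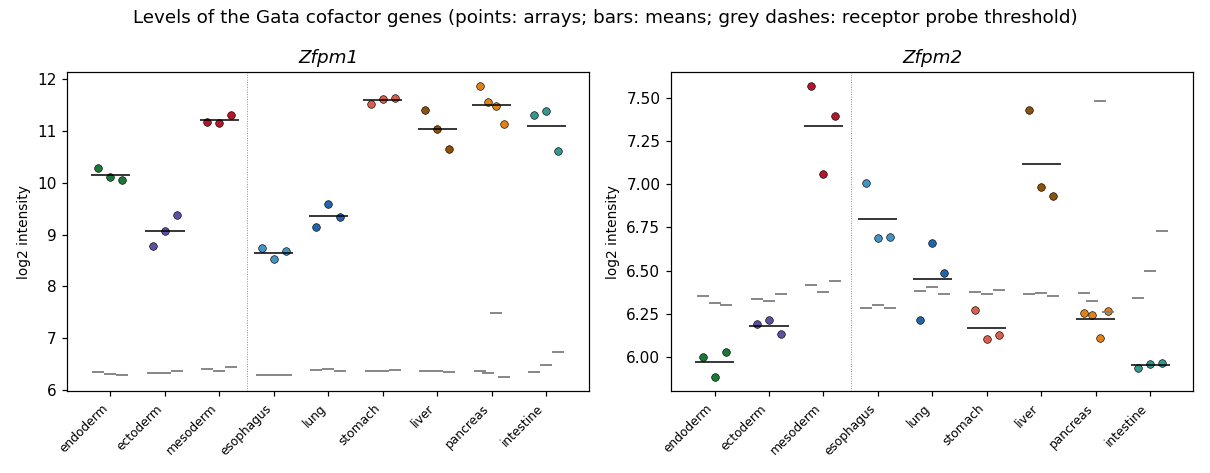
Log2 levels of the FOG cofactor genes Zfpm1 and Zfpm2 on each of the 28 arrays (points), with group means (black bars) and the receptor probe threshold (grey dashes). Zfpm1 is lowest in esophagus, at 8.53 to 8.73, and Zfpm2 lies above the dashes on all arrays of mesoderm, liver and esophagus only.

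Of 19 genes listed as GATA cofactors or partner factors, 17 were tested. None was higher and 5 were lower in endoderm than in mesoderm, where 8.63% of all genes were called. The list median was -0.37, against 0.05 for all genes tested. The largest differences were in Mef2c, a muscle and endothelial factor (-3.26 ± 0.18, limma, adjusted p = 1.96e-12), and in Tal1, at least 2.73-fold lower (adjusted p = 1.56e-08). Ectoderm gave 0 higher and 5 lower against mesoderm, where 5.54% of all genes were called. Among the 5 were Zfpm1 (-2.13 ± 0.20) and Lmo2, a hematopoietic bridging factor (-1.60 ± 0.24). Between organs the list had 13 calls one way and 19 the other over 15 comparisons, 12.5% of its tests, where 9.34% were called over all genes. Lmo2 (-2.48 ± 0.24) and Mef2c (-2.21 ± 0.18) were lower in stomach than in liver, and Lmo4, a LIM-only partner, was 1.74 ± 0.13 higher in esophagus than in liver.

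Cardiac genes that GATA factors are known to control (13 of 20 tested) stood lower in endoderm than in mesoderm in 8 cases. None was higher, and 8.63% of all genes were called. The list median was -1.62, against 0.05 for all genes. Against mesoderm, ectoderm had 10 lower and 0 higher, where 5.54% of all genes were called, with a median of -2.24 against 0.06. The largest differences between endoderm and mesoderm were in the sarcomere genes Actc1 (-5.03 ± 0.24), Myl4 (-4.86 ± 0.24) and Myl7 (-4.52 ± 0.16), and Myl2 was at least 8.74-fold lower (limma, adjusted p from 7.06e-16 to 4.85e-11). Actc1, Myl4 and Myl7 are also among the cardiac muscle markers summed to check the mesoderm label. So are Nkx2-5, Tnnt2, Myh6, Myh7, Tbx5 and Nppa of the same list. The list is of heart genes, so high levels in mesoderm were likely in advance and are no result about GATA factors. Gata6, Gata5 and Zfpm2 were highest in mesoderm among the layers, and a link with these genes was not tested. Between organs the list had 11 calls one way and 16 the other over 15 comparisons, 13.8% of its tests against 9.34% over all genes. They included Isl1, an islet and second heart field factor, lower in liver than in pancreas (-5.37 ± 0.21), Tnnc1, a troponin gene, at least 5.16-fold higher in liver than in esophagus, and Myl3, at least 2.46-fold higher in intestine than in esophagus.

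Of 29 genes reported as GATA targets in endoderm and its organs, 13 were tested. In E8.25 endoderm 5 were higher and 1 lower than in mesoderm, where 8.63% of all genes were called. The list median was 0.52, against 0.05 for all genes. Ttr, a thyroid hormone carrier of yolk sac and liver, was 3.94 ± 0.38 higher, Apoa1, an apolipoprotein, 2.00 ± 0.22 higher and Shh, a gut epithelial ligand, at least 5.97-fold higher (limma, adjusted p from 5.09e-11 to 1.61e-07). Bmp4, a ligand, was lower in ectoderm than in mesoderm (-2.16 ± 0.21). Against E8.25 endoderm, intestine had 7 higher and 3 lower with a median of 1.01, where 8.52% of all genes were called. Esophagus had 2 higher and 5 lower with a median of -0.01, where 11.1% of all genes were called. Lung was lower than intestine in 8 and higher in 3, where 5.76% of all genes were called, with a median of -1.38 against 0.01. Between organs there were 52 calls one way and 67 the other, 61.0% of the list's tests against 9.34% over all genes. The list is of genes of endoderm organs and was chosen with earlier results of these data known. A high share was therefore likely in advance and is no result about GATA factors. Apoa1 and Afp, a fetal serum protein, were lower in lung than in liver (-6.98 ± 0.22 and -6.37 ± 0.34), Ttr was lower in esophagus than in liver (-6.82 ± 0.38), and Shh was at least 79.9-fold higher in intestine than in liver.

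Of 22 endoderm transcription factors listed as acting beside GATA factors, 17 were tested. In E8.25 endoderm 5 were higher and 0 lower than in ectoderm, where 2.83% of all genes were called. The list median was 0.11, against -0.02 for all genes. Foxa1 was at least 11.2-fold and Foxa3 at least 6.43-fold higher in endoderm than in mesoderm, both pioneer factors of gut and liver. Sox17, an early endoderm factor, was at least 5.79-fold and Hhex, a foregut and liver factor, 2.04 ± 0.17 on the log2 scale higher in endoderm than in ectoderm (limma, adjusted p from 8.99e-11 to 5.19e-08 over the 4 genes). Between organs there were 57 calls one way and 67 the other, 48.6% of the list's tests against 9.34% over all genes. This list too holds factors of particular organs and was chosen with earlier results known, so its share is no result about GATA factors. Cdx2, the hindgut factor, was at least 56.8-fold higher in intestine than in esophagus, Nkx2-1, the lung and thyroid factor, at least 44.6-fold higher in lung than in intestine, Klf5, an epithelial factor, 5.99 ± 0.23 higher in stomach than in liver, and Foxa3 lower in esophagus than in liver (-5.003 ± 0.21).

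Of the remaining family genes, 3 of 6 listed were tested. Trps1, an atypical GATA-type repressor, was high in esophagus (8.43, 8.06 and 7.85) and lung (8.67, 7.69 and 7.91) and read 6.78, 6.53 and 6.32 in liver, so that esophagus exceeded liver by 1.57 ± 0.22 (limma, adjusted p = 2.38e-06). Gatad2b, a subunit of the NuRD repressor complex, was 1.05 ± 0.28 higher in esophagus than in intestine (adjusted p = 0.00727), with 1 of 3 intestine arrays at background. No family gene outside the 5 members was called between the E8.25 layers.

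The genes whose 9 group means followed each member most closely, among all genes tested, are given as descriptions over 9 groups. For Gata6 they were Septin2 (r = 0.94), Id2 (0.90), Ext2 (0.90), Mmp14 (0.89) and Mep1b (0.87). Id2 had means of 11.24 in intestine, 10.78 in lung and 10.31 in mesoderm against 8.85 in esophagus, 9.19 in ectoderm and 9.22 in E8.25 endoderm, whereas Septin2 and Mep1b spanned only 0.56 and 0.57 log2 units. For Gata4 they were Dcbld1 (0.96), Dctn6 (0.93), Spock3, Pttg1ip and Araf (0.90 each), and over the 28 arrays these 5 stood at 0.82, 0.60, 0.82, 0.62 and 0.45. Dcbld1 means were 10.95 in stomach, 10.29 in intestine and 9.66 in pancreas, and 8.05 to 8.94 in the other 6 groups.

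For Gata2 the closest genes were Polg (0.96), Phlda2 (0.95), Tspan18 (0.95), Tnnc1 (0.95) and Fam169b (0.94). Phlda2 had means of 12.27 in mesoderm, 11.23 in E8.25 endoderm and 10.16 in ectoderm, 8.94 in liver and 6.24 to 7.42 in the other organs. For Gata3 they were Serinc3 (0.91), Engase (0.90), Cxcl12 (0.88), Spink1 (0.88) and Stt3b (0.88), with Spink1 at 12.70 in E8.25 endoderm, 11.56 in intestine and 11.43 in liver against 6.09 in lung. For Gata5 they were Rnf220, Mvb12a, Alad and Shisa4 (0.90 each) and Nudt1 (0.89), and these 5 spanned 0.42 to 0.91 log2 units. Over the 28 single arrays the Gata5 correlations were lower, at 0.44 for Rnf220, 0.47 for Mvb12a, 0.73 for Alad, 0.78 for Shisa4 and 0.45 for Nudt1.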

How the data were processed

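Trizol RNA was, per the labels, amplified and biotin-labelled with a TotalPrep kit, hybridised to Illumina MouseRef-8 v2 arrays and read with BeadStudio (version not given in the sources used here). The deposited values are probe intensities on a linear scale, some below 0; their normalization by the authors is not stated. They were background-corrected with normexp (offset 50), quantile-normalized over 28 arrays and taken to log2. Of 25697 probes, 23978 had 1 gene symbol in the platform annotation and 1719 none. A probe was above background over the 99th percentile of 1361 sensory receptor probes of its array. Genes above background on every array of at least 1 group were tested (9651, by the probe with the highest mean). A single limma fit over all 9 groups gave 24 comparisons, with Benjamini-Hochberg adjustment within each. A call needed an adjusted p under 0.05 and a 2-fold difference.

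Where a probe was above background on no array of a group, the fold is a bound: the brighter group's mean over the dimmer group's mean of, per array, the higher of the lowest signal above background and the probe's own signal. Named list genes were the called genes with the largest differences, up to 4 per list in the layer and in the organ comparisons, with Zfpm1, Zfpm2 and Gata1, and for each member the 5 genes with the most similar group means. The members and the gene lists were chosen with earlier results of these data known.

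The labels do not say that replicates came from separate litters, so p-values measure only the spread between these samples. Precision is limited by how many arrays each group has. The design text names 3 replicates, while the labels give 4 pancreas samples; all were used. A further table held 112 columns that could not be assigned to samples and was not used. The replicate numbers were checked for pairing, by correlating deviations from the group means: all same-number correlations were over 0.1 in 7 of 24 comparisons. They were highest between lung and stomach (0.88, 0.69 and 0.63) and between pancreas and intestine (0.67, 0.56 and 0.56). The main tests are unpaired, and a replicate block shared by all groups changed no Gata call. Tools were R 4.3.3, limma 3.58.1 and statmod 1.5.0.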

Additional observations from a re-analysis of the deposited data

Results flagged for a closer look

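Gata3 on pancreas 1 stood far from the other pancreas samples. It read 6.56, against 5.95 to 6.03 on the other 3 arrays, and was the only pancreas array on which the probe was above background. Of the 5 Gata genes tested in this way in pancreas, the one group with 4 samples, this was 1 flag; chance flags about 1 in 20 groups.

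Gata6 in esophagus moved against the other organs. Its difference from E8.25 endoderm was -1.20 ± 0.15, while it was 1.39 to 2.45 in the other 5 organs. The direct comparisons of esophagus with each of these organs, from -2.58 to -3.65, all passed limma's test, with adjusted p from 1.16e-14 to 3.2e-12.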

How the results depend on the processing

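No Gata difference that was called changed direction under any alternative run. The 21 calls between organs became 37 with no background correction and a floor of 16, and 35 with a normexp offset of 16, settings that widen the differences of dim probes. They ranged from 17 (without liver 3) to 24 (without liver 1) when single arrays were left out. The 7 calls between layers were 7 to 8 and the 16 calls against E8.25 endoderm 15 to 24 over all alternatives. The replicate block gave 7, 16 and 21 calls and changed no Gata call. Array weights gave 7, 17 and 17, and an intensity class term 7, 17 and 20. Only lung and stomach had arrays of both classes, so that term was estimated from these groups alone. Leaving out liver 3, pancreas 3 and intestine 3 together, chosen after seeing the data as were the fits within each intensity class, gave 7, 17 and 17. Over all genes and 24 comparisons, calls numbered 21549, and 34523 with no background correction. Counting each of the 120 Gata differences once per alternative, a call was lost 28 times and gained 59 times, and 4685 times the difference stayed on its side of the threshold. Gata2, Gata4 and Gata5 lie near background in many groups, where only bounds on their differences can be given.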
